A study of Mus musculus with 9 samples.

Results

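The integrin subunits Itga3, Itga4, Itga5, Itga6, Itga7, Itga8, Itga11, Itgb1 and Itgb5, together with melusin (Itgb1bp2), were examined in beating and non-beating cells of cultured mouse adipose tissue. Each of the 10 genes was read by 1 row of the array that the annotation gives to that symbol alone, and 19938 genes were represented in the same way. The stromal vascular fraction (SVF) came from subcutaneous fat of C57BL6/J mice aged 10 weeks and was grown in a minimal medium without added induction. On day 28, spontaneously beating colonies were picked by hand and formed the beating group (n = 4), and the cells that remained formed the non-beating group (n = 4). Colonies of more than 1 dish from 1 lot of SVF were joined into each beating sample, so a sample is a pool and may hold neighbouring cells, and the non-beating samples are a mixture of cell types. The round sample was 1 pool of 6 round cells taken on day 14. RNA was amplified and hybridised to Affymetrix Mouse Gene 1.0 ST arrays, and the values are log2 signals that include background.

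Integrins are receptors of the cell surface made of 1 alpha and 1 beta subunit, which hold cells to the extracellular matrix and pass force to the actin cytoskeleton through talin, kindlin and integrin-linked kinase. The beta subunit encoded by Itgb1 pairs with many alpha subunits, and the alpha subunit largely sets which ligand is bound: laminin for the products of Itga3, Itga6 and Itga7, fibronectin for that of Itga5, fibronectin and Vcam1 for that of Itga4, nephronectin for that of Itga8 and fibrillar collagen for that of Itga11. Striated muscle is anchored to the laminin of its basement membrane in part through the Itga7 and Itgb1 pair. Melusin is a muscle protein that binds the cytoplasmic tail of the Itgb1 subunit, and in mice it is known for its part in the response of the heart to mechanical load.

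Melusin, Itga7 and Itga4 were higher in the beating samples, Itga8 was lower, and the other 6 genes did not pass the test (limma over all 33323 transcript clusters, the array's units of a gene or part of one, two-sided, Benjamini-Hochberg adjusted p under 0.05). Of all clusters, 2.82% were higher and 3.34% lower at this threshold. Of the 10 genes, 4 had signals that did not overlap between the groups, against 14.2% of all clusters. These were the 4 that passed the test. The median difference of the 10 genes was 0.10 on the log2 scale, against 0.0073 over all clusters. Because the samples are bulk RNA, fewer cells of a type and less RNA per cell cannot be told apart. Nothing in the labels says whether the 4 samples of a group were separate lots, so that each p measures the spread between these samples alone.

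**Figure D1:**
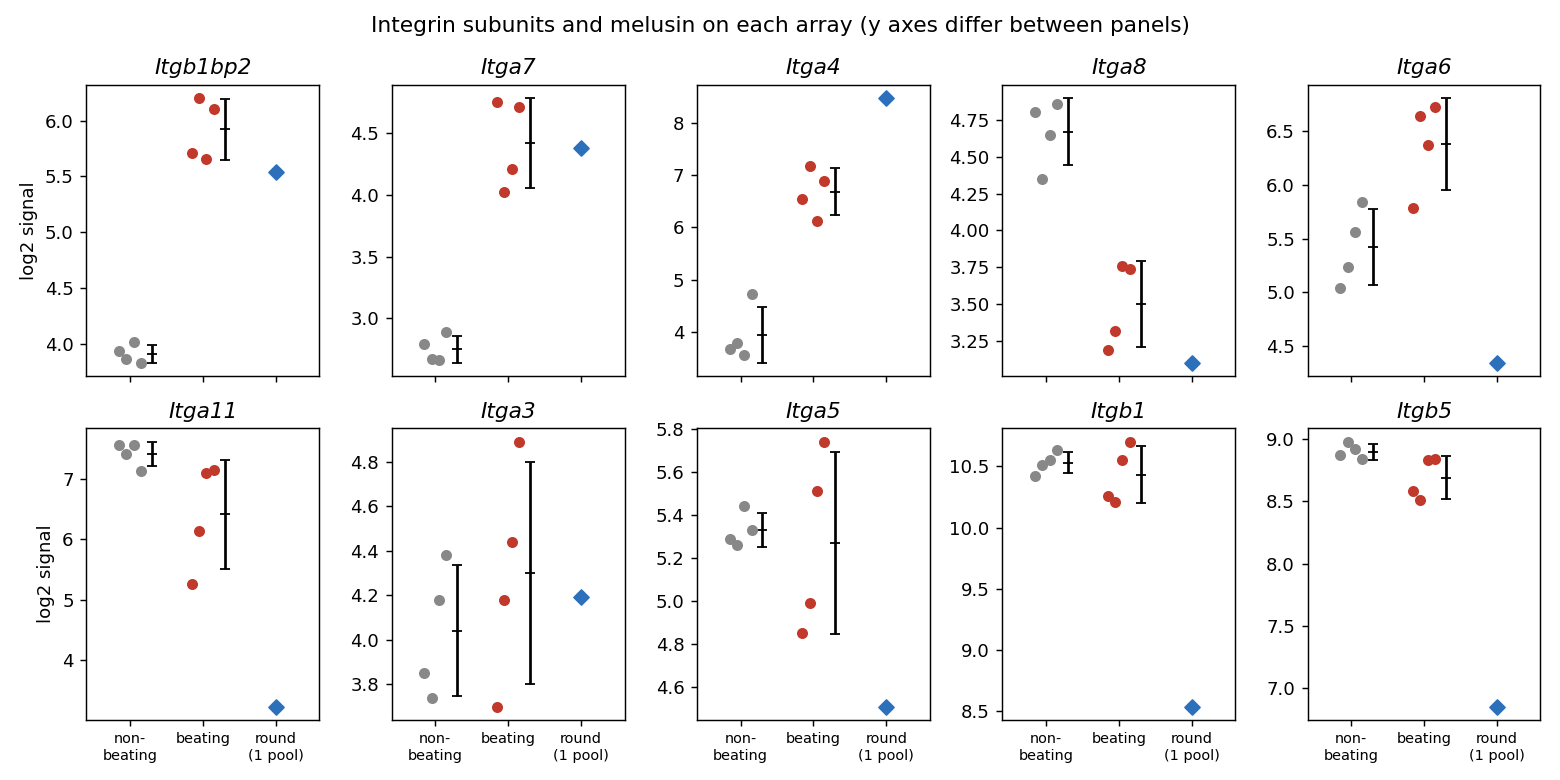
Log2 signal (y axes, which differ between panels) of 9 integrin subunits and Itgb1bp2 in non-beating (grey, n = 4), beating (red, n = 4) and round (blue, 1 pool of 6 cells) samples; points are arrays, and black bars give the mean and SD of 4. The red points of Itgb1bp2, Itga7 and Itga4 all lie above the grey points, those of Itga8 all lie below, and the groups overlap for the other 6 genes.

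The log2 signal of Itgb1bp2, which encodes melusin, was 5.71, 6.20, 5.66 and 6.10 in beating replicates 1 to 4 and 3.94, 3.87, 4.02 and 3.83 in non-beating replicates 1 to 4. All beating arrays lay above all non-beating arrays, and the non-beating arrays varied less than the beating ones. The mean was 5.92 ± 0.27 against 3.91 ± 0.080 (SD, n = 4 each), a 4.01-fold difference (log2 difference 2.00, 95% interval 1.70 to 2.30, limma adjusted p = 9.32e-05). The adjusted p lay between 2.46e-05 and 0.0063 over the other adjusted fits.

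Itga7, the alpha subunit of the laminin receptor of muscle, was at 4.75, 4.02, 4.21 and 4.71 in beating replicates 1 to 4 and at 2.79, 2.67, 2.66 and 2.89 in non-beating replicates. Every beating value was above every non-beating value, and the non-beating values were below the medians of those arrays, which lay between 3.08 and 3.17 over the 8 arrays. The difference was 1.67 on the log2 scale (95% interval 1.28 to 2.06), or 3.18-fold (limma adjusted p = 0.00137). Signals near background enter this ratio, which can then differ from the ratio of transcripts.

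Itga4, the alpha subunit of the receptor for Vcam1 and fibronectin, which leukocytes and embryonic muscle cells carry, had the largest rise of the 10 genes. Its log2 signal was 6.55, 7.17, 6.13 and 6.89 in beating replicates 1 to 4 and 3.68, 3.79, 3.56 and 4.72 in non-beating replicates, where replicate 4 stood above the other 3 and still below every beating array. The mean was 6.68 ± 0.45 against 3.94 ± 0.53 (SD, n = 4 each), a 6.71-fold difference (log2 difference 2.75, 95% interval 2.05 to 3.45, limma adjusted p = 0.00208). Of 10 macrophage markers, Mpeg1 was lower, 9 did not pass the test, and all 10 had a lower mean in the beating samples. The list's mean log2 signal was 3.34 to 5.26 in beating arrays and 5.27, 6.52, 5.29 and 6.87 in non-beating replicates 1 to 4. Non-beating replicate 2 was thus near replicate 4 for this list, but not for Itga4 (3.79 and 4.72). Ptprc, the pan-leukocyte antigen, had a mean of 3.43 ± 0.30 in the beating group and 4.61 ± 1.01 in the non-beating group (limma adjusted p = 0.191). At an unadjusted p under 0.05, which 20.9% of all clusters had, 9 of the 10 markers were lower. The adjusted count depended on the setting: 5 were lower with dim clusters left out or with the replicate block, 6 with the 1.5-fold prefilter, and 0 with array weights or the adjusted two-sample test. Without beating replicate 4 it was 4, and without beating replicate 1, 2 or 3 or non-beating replicate 2, 3 or 4 it was 0. The part of these cells in the signal of Itga4 was not tested.

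Itga8, the alpha subunit of the nephronectin receptor, found on mesenchymal and smooth muscle cells, was the only one of the 10 genes called lower. It was at 3.19, 3.32, 3.76 and 3.74 in beating replicates 1 to 4 and at 4.80, 4.35, 4.65 and 4.86 in non-beating replicates, with no overlap. Its mean was 3.50 ± 0.29 against 4.67 ± 0.23 (SD, n = 4 each), 2.24-fold lower, and the log2 difference was -1.16 (95% interval -1.55 to -0.78, limma adjusted p = 0.00712). Of 8 fibroblast and mesenchymal markers, Thy1, Pdgfra and Dcn were lower, 5 did not pass, and all 8 had a lower mean in the beating samples. The list's mean log2 signal was 7.15 to 7.36 in beating and 7.95 to 8.51 in non-beating arrays, and its part in the difference of Itga8 was not tested.

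**Figure D2:**
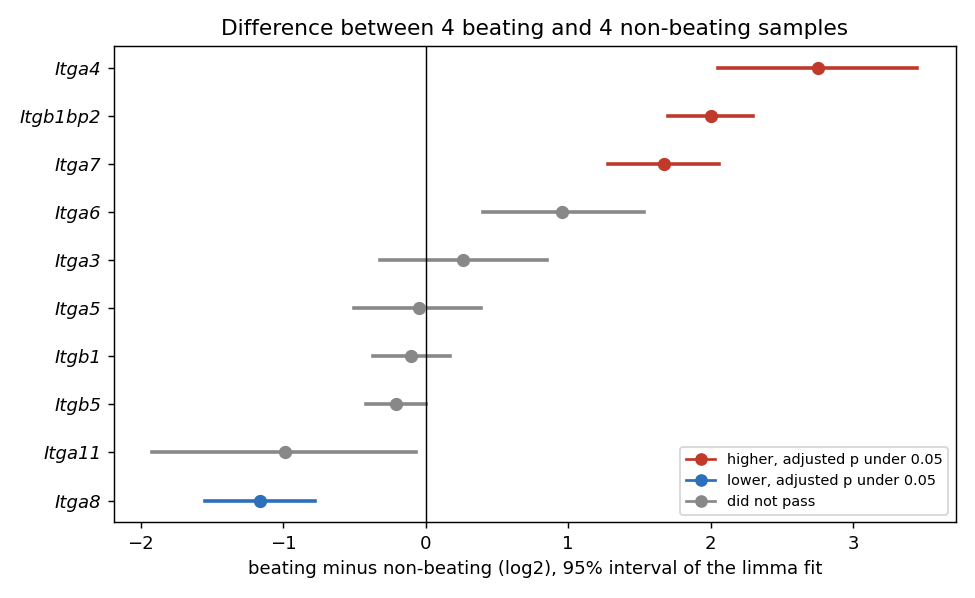
Beating minus non-beating difference (x axis, log2) of each gene (y axis) with the 95% interval of the limma fit, not adjusted for the number of genes; red and blue mark genes higher and lower at an adjusted p under 0.05, and grey marks genes that did not pass. Itga4, Itgb1bp2 and Itga7 lie at 2.75, 2.00 and 1.67 and Itga8 at -1.16, and Itgb1 has an interval from -0.37 to 0.17.

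The RefSeq table of sequences before gene starts (GRCm38.p6) held 7 of the 10 genes and none for Itga6, Itga7 and Itgb1bp2. The 250 bases before the listed start are shown for Itga4 and Itga8, the genes of opposite direction among those that passed. The window of Itga4 ends just before its annotated gene, which begins at 79255426. The annotated gene of Itga8 reaches 12301985, so the last bases of its window lie within that gene. Capitals mark matches of CANNTG, the E-box that myogenic factors bind, of the MEF2 site or of the CArG box on either strand, and all capitals here are E-boxes.

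Itga4, chr2:79255176-79255425, plus strand: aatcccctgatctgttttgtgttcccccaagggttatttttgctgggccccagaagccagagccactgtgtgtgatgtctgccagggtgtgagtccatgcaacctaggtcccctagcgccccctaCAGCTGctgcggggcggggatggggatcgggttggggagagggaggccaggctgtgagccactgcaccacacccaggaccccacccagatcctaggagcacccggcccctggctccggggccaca

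Itga8, chr2:12301945-12302194, minus strand: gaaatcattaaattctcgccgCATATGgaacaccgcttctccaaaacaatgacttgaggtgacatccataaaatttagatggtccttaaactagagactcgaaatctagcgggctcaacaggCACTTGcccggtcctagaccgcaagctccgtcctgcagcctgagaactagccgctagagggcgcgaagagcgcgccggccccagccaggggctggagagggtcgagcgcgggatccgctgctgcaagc

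The window of Itga4 held 1 E-box, which reads CAGCTG, and that of Itga8 held 2, neither of which does. CAGCTG is itself a form of CANNTG, so the same bases count for both motifs. Of 32851 windows of this length, 66.2% held CANNTG and 13.0% CAGCTG. Neither window held a MEF2 site or a CArG box, which 2.92% and 1.47% of windows held on either strand. The MCAT letters CATTCC were in 12.6% of windows and in neither of these. GGGCGG was found in the window of Itga4 and in 32.7% of all windows. Among the windows not shown, that of Itgb5, which did not pass the test, held 3 E-boxes, 1 of which reads CAGCTG. These matches describe the letters of the windows alone.

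Itgb1, the common beta subunit, differed little between the groups. It was at 10.26, 10.21, 10.55 and 10.70 in beating replicates 1 to 4 and at 10.42, 10.51, 10.55 and 10.63 in non-beating replicates. The groups overlapped, with a log2 difference of -0.10 (95% interval -0.37 to 0.17, limma adjusted p = 0.701). Itgb5, a beta subunit that pairs with the product of Itgav to bind vitronectin, had values of 8.58, 8.51, 8.83 and 8.84 in beating and of 8.87, 8.98, 8.92 and 8.84 in non-beating replicates. Its difference of -0.21 (limma adjusted p = 0.240) did not pass the test, and the highest beating array reached the lowest non-beating array.

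Itga6, an alpha subunit of laminin receptors in epithelium, endothelium and muscle precursors, was at 5.78, 6.64, 6.37 and 6.73 in beating replicates 1 to 4 and at 5.04, 5.23, 5.56 and 5.84 in non-beating replicates. Of these, 3 beating values lay above all non-beating values and that of replicate 1 did not. The log2 difference was 0.96 (95% interval 0.40 to 1.53), which passed at an unadjusted p of 0.00425 and not after adjustment (limma adjusted p = 0.0595); without beating replicate 1 the adjusted p was 0.0225, and without each of the other arrays it did not pass (up to 0.158). Beating replicate 1 also had the lowest mean of 8 endothelial markers, at 3.71 against 4.81, 5.21 and 5.51 in beating replicates 2, 3 and 4, and against 4.56 to 5.50 in non-beating arrays. Of the 8 endothelial markers 0 passed limma's adjusted test or the adjusted two-sample test and 0 had an unadjusted p under 0.05, and their part in the signal of Itga6 was not tested.

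Itga11, the fibrillar collagen receptor subunit of fibroblasts, was the most variable of the 10 genes among beating arrays, at 5.26, 6.14, 7.10 and 7.15 in replicates 1 to 4 (SD 0.90) against 7.55, 7.40, 7.56 and 7.13 in non-beating replicates (SD 0.20). Beating replicates 3 and 4 were near the non-beating values and replicates 1 and 2 were below them. The difference of -0.99 had an unadjusted p of 0.0379 and did not pass after adjustment (limma adjusted p = 0.206). Without beating replicate 1 the difference was -0.61.

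Itga3, a laminin receptor subunit of epithelium, ranged over 3.70 to 4.89 in beating arrays and 3.74 to 4.38 in non-beating arrays, and the groups overlapped widely (log2 difference 0.26, 95% interval -0.32 to 0.85, limma adjusted p = 0.628). The difference was 0.46 without beating replicate 1 and 0.07 without beating replicate 4. Itga5, the alpha subunit of the main fibronectin receptor, had values of 4.85, 4.99, 5.51 and 5.74 in beating and of 5.29, 5.26, 5.44 and 5.33 in non-beating replicates. Beating values lay on both sides of the non-beating values, and the log2 difference was -0.05 (95% interval -0.50 to 0.39, limma adjusted p = 0.911), a sign that turned without beating replicate 1 (0.09) or 2 (0.04). Beating replicate 1 was the lowest of the 4 for Itga3, Itga5, Itga6, Itga8 and Itga11, and replicate 4 the highest for Itga3, Itga5, Itga6, Itga11, Itgb1 and Itgb5. The lists of macrophage, endothelial and smooth muscle markers were also lowest in beating replicate 1, at 3.34, 3.71 and 5.65, and highest in replicate 4, at 5.26, 5.51 and 6.52 (mean log2 signal). The order was the same in lists not chosen as cell type markers. Other integrin subunits, which include leukocyte subunits, ran from 3.60 to 3.92, and ligands from 5.77 to 6.30. Tail adaptors and kinases ran from 5.45 to 6.0, and relatives and partners of melusin from 7.52 to 7.87. That order did not hold for striated muscle markers, at 8.85, 8.64, 8.62 and 8.70 in beating replicates 1 to 4. Nor did it for fibroblast and mesenchymal markers (7.15, 7.36, 7.30 and 7.33), adipocyte markers (3.80, 3.55, 3.70 and 3.90) and Schwann cell markers (3.98, 3.92, 4.13 and 3.91). The cause was not tested.

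Striated muscle genes, chosen with earlier results of these data known, were read to describe the samples and are no independent check of their identity. Of 10 such genes 9 were higher in the beating samples and Ckm, muscle creatine kinase, did not pass, at 4.09 ± 0.23 against 3.71 ± 0.11 (limma adjusted p = 0.109). The mean of the 10 was 8.62 to 8.85 in beating arrays, 3.81 to 4.29 in non-beating arrays and 9.09 in the round pool. Neb, Myh3, Actc1 and Ttn, all of the sarcomere, rose by 6.88, 6.83, 6.46 and 6.40 on the log2 scale. Their part in the rise of melusin, Itga7 and Itga4 in the same arrays was not tested. Of 7 adipocyte markers Adipoq and Pparg were lower and 5 did not pass. Of 8 smooth muscle and pericyte markers 0 passed limma's adjusted test or the adjusted two-sample test, and 3 had an unadjusted p under 0.05 (20.9% of all clusters did), of which Cnn1 and Tagln had a lower and Cspg4 a higher mean. Of 4 Schwann cell markers 0 passed either test, and 0 had an unadjusted p under 0.05. The calls of Mpeg1, Pdgfra, Adipoq and Pparg were lost in 7, 2, 3 and 4 of the 8 fits that left out 1 array (limma adjusted p up to 0.138, 0.0557, 0.0686 and 0.0634). These were all but that without beating replicate 4 for Mpeg1, those without non-beating replicates 2 and 3 for Pdgfra, without beating replicates 2 and 3 and non-beating replicate 3 for Adipoq, and without beating replicate 3 and non-beating replicates 1, 2 and 3 for Pparg. None of the 4 was called by the two-sample test after adjustment; lost too were that of Mpeg1 with array weights, and those of Pdgfra and Adipoq with the replicate block.

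Among 18 further integrin subunits, 1 was higher and 17 did not pass, with a median log2 difference of -0.07. The gene that rose was Itgb6, a beta subunit that pairs with the product of Itgav and is best known from epithelium, where it activates latent TGF-beta. It had values of 5.44, 5.90, 5.15 and 5.41 in beating and of 2.51, 3.04, 2.19 and 2.28 in non-beating replicates. All 4 non-beating values were below the median of their array, and the log2 difference was 2.97 (standard error 0.22, limma adjusted p = 0.000204). Itgav, its partner, had a mean of 8.04 ± 0.41 in the beating group and 8.43 ± 0.14 in the non-beating group (limma adjusted p = 0.308), and Itgb3, another partner of Itgav, had means of 3.80 ± 0.32 and 3.82 ± 0.16 (limma adjusted p = 0.962). Of the leukocyte subunits, Itgb2 was at 3.35 ± 0.39 against 4.16 ± 0.56 and Itgam at 2.89 ± 0.19 against 3.18 ± 0.29 (limma adjusted p = 0.170 and 0.361). The other leukocyte subunits of the list, Itgal, Itgae, Itgb7, Itgax and Itgad, did not pass either, with differences of 0.07, 0.01, 0.03, -0.09 and -0.04 and means below the array medians in both groups.

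Among 18 integrin ligands of the matrix and the cell surface, Npnt was higher, Vcam1 was lower and 16 did not pass (median log2 difference -0.13). Npnt encodes nephronectin, a basement membrane ligand of the Itga8 and Itgb1 pair, and read 6.54, 6.34, 5.56 and 6.40 in beating replicates 1 to 4 and 3.77, 3.74, 4.08 and 4.24 in the non-beating ones, 4.77-fold higher (limma adjusted p = 0.00113). Npnt was thus higher in the samples in which Itga8 was lower. Vcam1, the cell surface ligand of the Itga4 and Itgb1 pair, had values of 7.16, 7.39, 7.11 and 7.58 in beating and of 8.48, 8.66, 8.58 and 8.18 in non-beating replicates, 2.24-fold lower (limma adjusted p = 0.00309), while Itga4 was higher. The other known ligand of that pair, fibronectin (Fn1), was at 11.14 ± 0.39 and 11.31 ± 0.11 (limma adjusted p = 0.655). Lama2, the laminin chain of the muscle basement membrane that the product of Itga7 binds, was at 6.05 ± 0.077 and 5.86 ± 0.11 (limma adjusted p = 0.199).

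Among 27 adaptors and kinases of the integrin tails, Flnc was higher, Itgb1bp1, Zyx and Rsu1 were lower and 23 did not pass (median log2 difference -0.22). Flnc, the filamin of striated muscle, had values of 6.45, 6.77, 6.94 and 7.17 in beating and of 5.81, 5.38, 5.47 and 5.17 in non-beating replicates, 2.59-fold higher (limma adjusted p = 0.00494). Itgb1bp1 encodes ICAP1, an inhibitor that binds the same Itgb1 tail as melusin; it fell by 0.52 on the log2 scale, from 6.86 ± 0.21 to 6.34 ± 0.082 (SD, n = 4 each, limma adjusted p = 0.0288). Zyx, the LIM protein zyxin of focal adhesions, fell by 0.59 and Rsu1, a partner of the integrin-linked kinase complex, also fell by 0.59 (limma adjusted p = 0.0385 and 0.0441). These last calls did not hold without single arrays: that of Itgb1bp1 was lost without beating replicate 2, 3 or 4 or non-beating replicate 1 or 3, that of Rsu1 without beating replicate 2 or 3 or any non-beating replicate, and that of Zyx without any array but beating replicate 4 (limma adjusted p up to 0.0865, 0.125 and 0.112). Neither the replicate block nor the two-sample test after adjustment kept any of the 3 calls; lost too were that of Itgb1bp1 after quantile normalization, and those of Zyx and Rsu1 with the prefilter. Talin and kindlin genes did not pass: Tln1 was at 6.26 ± 0.24 and 6.23 ± 0.023, and Fermt2 at 7.29 ± 0.35 and 7.73 ± 0.053 (limma adjusted p = 0.909 and 0.162).

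Of 7 relatives and signalling partners of melusin, Gsk3b was lower and 6 did not pass (median log2 difference -0.18). Chordc1, which encodes the widely expressed relative of melusin, had a mean of 6.23 ± 0.32 in the beating group and 6.53 ± 0.20 in the non-beating group (limma adjusted p = 0.373), and the chaperone gene Hsp90aa1 had means of 10.55 ± 0.033 and 10.59 ± 0.027 (limma adjusted p = 0.709). Gsk3b, a kinase of the Akt pathway, fell by 0.60 (limma adjusted p = 0.0349), a call that was lost without beating replicate 1 or 2 or any non-beating replicate (limma adjusted p up to 0.0933), under the prefilter and by the two-sample test after adjustment.

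**Figure D3:**
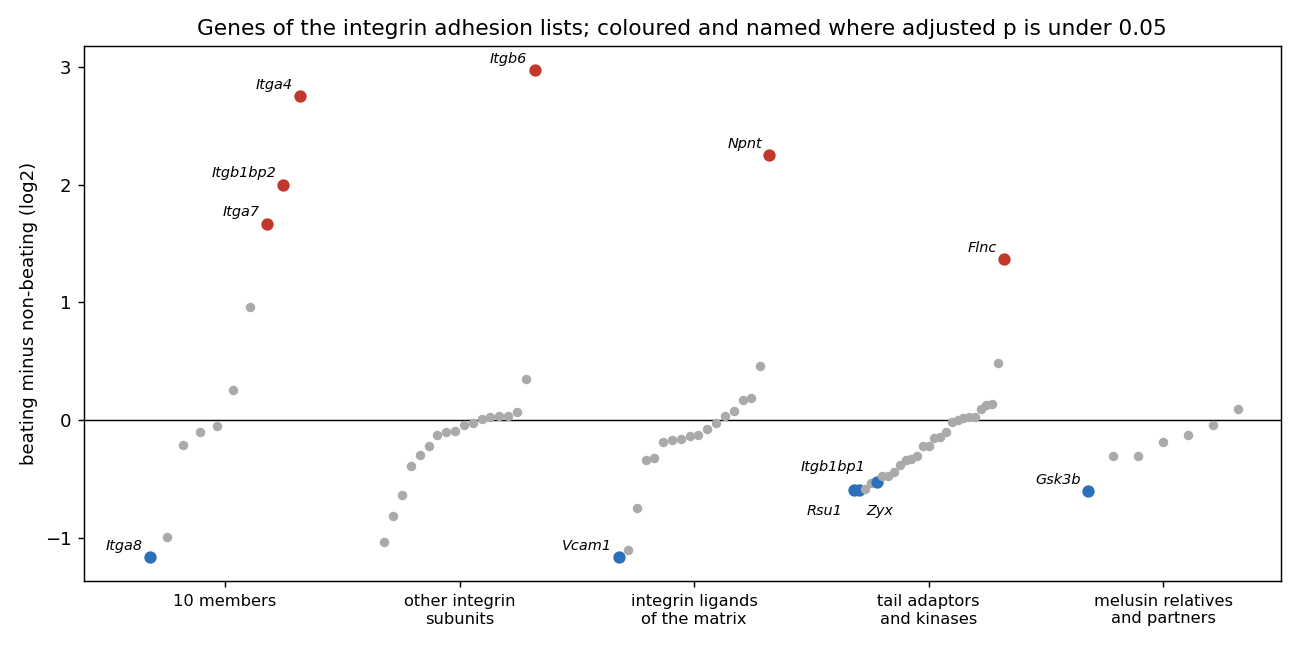
Beating minus non-beating difference (y axis, log2) of each gene, sorted within the 10 genes and 4 related lists (x axis); coloured, named points passed limma's test at an adjusted p under 0.05, and grey points did not. In the lists beside the 10 genes, Itgb6, Npnt and Flnc are above 0 and Vcam1, Itgb1bp1, Zyx, Rsu1 and Gsk3b below.

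The genes whose signal followed melusin most closely over the 9 arrays were Igf2, Myog and Chrng, with Pearson's r of 0.995, 0.992 and 0.990. Igf2 encodes a growth factor, Myog the myogenic regulator myogenin and Chrng the fetal subunit of the muscle acetylcholine receptor, and their log2 differences between beating and non-beating samples were 4.33, 3.83 and 2.80. For Itga7 the closest genes were Myom2, a protein of the sarcomere's M-band, Kcnn3, a calcium-activated potassium channel, and Actn3, the alpha-actinin of fast muscle fibres, with r of 0.985, 0.984 and 0.979 and differences of 2.68, 2.46 and 5.58. The 9 arrays fall into separate groups and share the difference between them, so each r is a measure of likeness only.

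In the round pool, Itga4 had a log2 signal of 8.47, above all 8 other arrays and 1.78 above the beating mean. Melusin was at 5.54 and Itga7 at 4.38, both 1.63 above their non-beating means and, as deposited, -0.37 and -0.04 from their beating means. These 3 genes were above every non-beating array in the pool. Itga3, at 4.19, lay within the range of the other arrays.

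The other 6 genes lay below all 8 other arrays in the round pool. Itga11 was furthest from them, at 3.24 and -4.17 from the non-beating mean, and Itga8 was at 3.10, both under the median of the round array, 3.54. Itgb1 was at 8.54, Itgb5 at 6.85, Itga6 at 4.34 and Itga5 at 4.51, which was -1.99, -2.06, -1.08 and -0.81 from the non-beating mean. The pool has no replicate and was taken earlier and from far fewer cells than the others, so no test was made. Bright genes were generally lower on that array: among clusters with a mean log2 signal above 5.00, which include Itga4, Itga5, Itga6, Itga11, Itgb1 and Itgb5, the median difference from the non-beating mean was -1.29, 72.7% of clusters lay below all 8 other arrays and 11% above. Among those between 3.12 and 5.00, which include melusin, Itga3, Itga7 and Itga8, the median was 0.19, with 19.2% below and 41.9% above.

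The direction of the round values depended on the scaling for 3 genes. Relative to the beating mean, melusin turned to 0.61 and Itga7 to 0.24 after quantile normalization of the 9 arrays, and relative to the non-beating mean Itga3 turned from 0.15 to -0.31 after median centring. Itga4 remained above both group means, by 1.39 to 2.50 and by 4.08 to 5.14, and the 6 genes below all other arrays remained below both means under both scalings. Of the related genes in the pool, Itgb6 was at 4.11, above all non-beating arrays and below all beating arrays, and so was Npnt, at 4.93. Fn1, Itgav and Vcam1 lay below all 8 other arrays, at 4.02, 4.56 and 5.35.

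**Figure D4:**
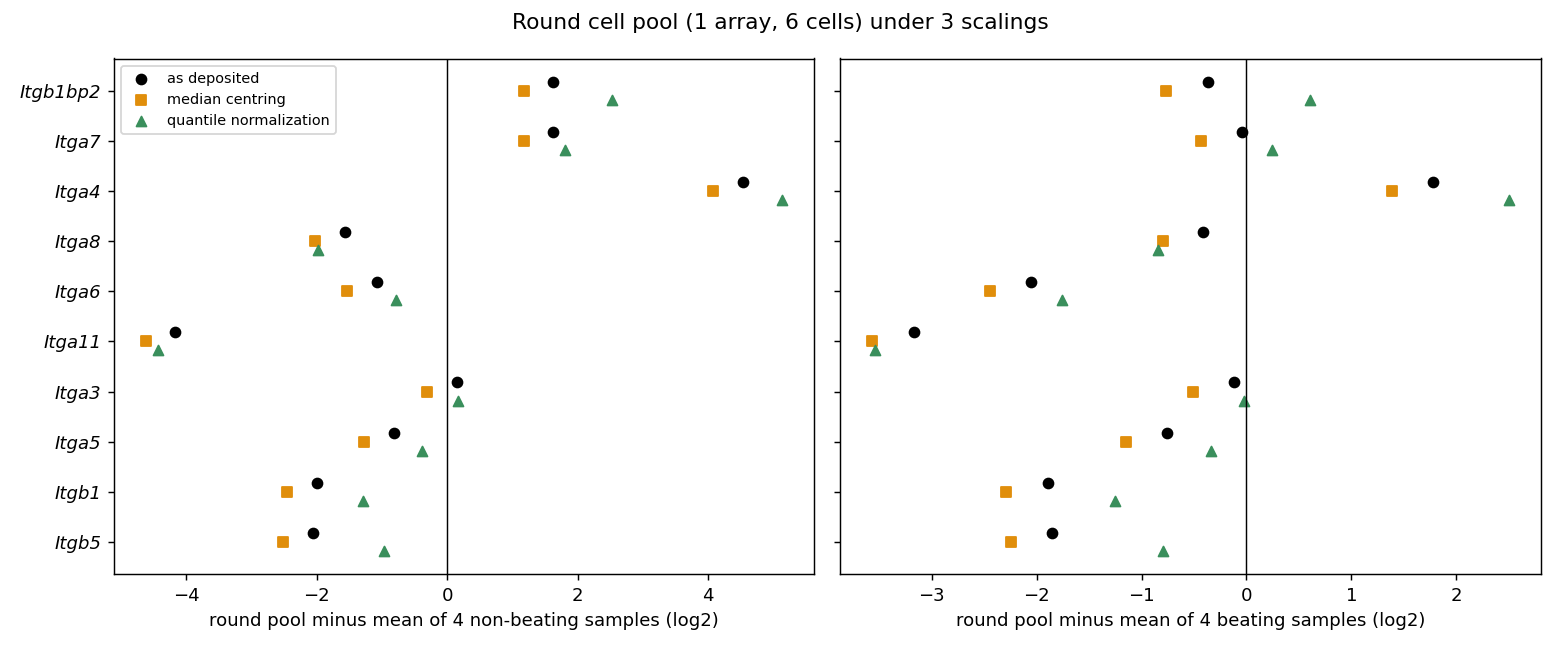
Round pool (1 array) minus the mean of the 4 non-beating (left) and of the 4 beating samples (right), log2 on the x axes, for each gene as deposited (circles), after median centring (squares) and after quantile normalization (triangles) of the 9 arrays. Itga4 lies to the right of 0 in both panels, and Itga11 lies furthest left in both.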

How the data were processed

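Total RNA was amplified with the Ovation Pico WTA system and read on Affymetrix Mouse Gene 1.0 ST arrays. Raw data were scaled, normalised and centred in BRB-ArrayTools by the authors; the deposited log2 signals are not centred per gene and were used as deposited, and how they were summarised is not given in the sources used here. Rows were named through the platform annotation, with symbols updated by gene number for 21698 of 21789 clusters of 1 symbol (1621 had several, 9913 none). A gene with several rows was given by the brightest over 8 arrays; each of the 10 genes had 1. The limma package (3.58.1, R 4.3.3; lmFit and eBayes) was used for beating against non-beating over 33323 clusters, an approach tested on simulated data. Related lists came to 11; in each, up to 4 called genes a direction with the largest change were named, with Itgav, Itgb3, Itgb2 and Itgam. For melusin and Itga7, the 3 most similar genes were named. Others were chosen after their values were seen (Ptprc, Ckm, Fn1, Lama2, Tln1, Fermt2, Chordc1, Hsp90aa1). Genes and lists were chosen with earlier results of these data known. Alternatives covered scaling, filters, variance model, array weights, the methods' two-sample test, a replicate block and leaving out each array. Listed genes with no row of 1 symbol were not analysed here. The number of arrays limits the precision.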

Additional observations from a re-analysis of the deposited data

How the results depend on the processing

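Of the 10 genes, 3 were higher and 1 lower as deposited, and the same 4 were called under every alternative but the methods' two-sample test at their unadjusted threshold, 0.0001, with the 1.5-fold prefilter, where melusin alone passed (1 higher, 0 lower, 221 clusters in all). Itga6 was called as well with quantile normalization, dim clusters left out, the prefilter, array weights, the replicate block and without beating replicate 1. Over all clusters 2054 were called, 866 with the two-sample test after adjustment and 1282 with the replicate block; without 1 array at a time the count lay between 1007 and 1887, while 3 to 4 of the 10 genes were higher and 1 lower. The fewest, 1185, 1007 and 1048, were called without non-beating replicates 1, 2 and 3, and 1359 without beating replicate 2; the cause was not tested. With the replicate block 4 of the 10 genes were higher and 1 lower, and same-numbered samples did not deviate together (correlations of deviations from group means -0.012, 0.028, -0.009 and 0.020). In the paper, non-beating cells were those left in a dish after picking, so samples of both groups may share dishes. Neither the paper nor the labels say that a number marks a shared dish. By this check the numbers were not taken as pairs in the main fit, but it does not exclude pairing for single genes. Among the 10 genes, the block raised the standard error of Itgb5 and melusin and lowered that of the others, Itga6 included. The block ended the calls of Zyx, Rsu1, Itgb1bp1, Pdgfra and Adipoq. The signs of Itga5 (0.07 with array weights, 0.09 and 0.04 without beating replicates 1 and 2) and Itgb3 (0.08 with array weights, 0.08, 0.04, 0.02 and 0.00 without beating replicate 1, non-beating 1, beating 3 and non-beating 4) turned, within -0.21 to 0.09 and -0.17 to 0.08 without 1 array, and in the round pool those of Itga3 (-0.31), Itga7 (0.24) and melusin (0.61). A mean over the rows of a gene would change nothing for the 10 genes, as each has 1. In the related lists some genes had several rows, such as Hsp90aa1 with 3, and no mean over rows was tried. Alternatives for genes of the related lists were added after seeing the data. Signals near background and 4 arrays a group limit the precision.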
